A study of Mus musculus with 2 samples.

Results

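The receptors that hold hematopoietic stem cells (HSCs) in the bone marrow niche, or guide them back to it, were examined as a group of 9 genes. They were chosen by name for what their proteins do, by a rule that uses no measured value but was set with earlier results of these data known, and all 9 were found among the 24421 gene symbols of the count files. The group holds the chemokine receptor *Cxcr4*, the integrin alpha subunits *Itga4*, *Itga5*, *Itga6* and *Itga9*, the integrin beta subunits *Itgb1* and *Itgb2*, the hyaluronan receptor *Cd44* and the selectin ligand *Selplg*.

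RNA-seq had been performed on HSCs sorted by surface markers (Lin- Sca-1+ c-kit+ cells that were CD150+ and lacked CD34, CD48 and Flt3). Donors were C57BL/6 CD45.2 mice whose genotypes were Ezh2 +/+ CreERT+/- (WT) and, for the library that the labels call Ezh2 KO, Ezh2 Δ/Δ CreERT+/- obtained from an Ezh2fl/fl strain. *Ezh2* encodes the main H3K27 methyltransferase of Polycomb repressive complex 2 (PRC2). Donor marrow was placed in lethally irradiated CD45.1 recipients, so the cells had homed and engrafted before they were sampled, and both groups carried the tamoxifen-dependent Cre. Tamoxifen (100 µl of 10 mg/ml) was injected daily for 5 days, and HSCs were sorted 1 month afterwards. The labels give neither the age of the mice nor how many recipients were pooled. Each group had 1 library, so no difference has a replicate check, and the intervals cover the counting error of reads alone. PCR reads lacking molecular identifiers are not independent molecules, so the intervals may be too narrow even for counting error.

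Homing and retention in the marrow follow a well-known series of contacts. Selectins on the vessel wall catch PSGL-1 (encoded by *Selplg*) and glycoforms of CD44 on the rolling cell. The chemokine CXCL12, sensed by CXCR4, then switches integrins to their adhesive state, and the integrins bind VCAM1, fibronectin and laminin in the vessel and the matrix, or ICAM1 in the case of the beta2 integrins. An integrin is a pair of 1 alpha and 1 beta subunit. ITGB1 pairs with the alpha subunits ITGA4, ITGA5, ITGA6 and ITGA9, while ITGB2 pairs with ITGAL, ITGAM, ITGAX and ITGAD, which are typical of mature leukocytes.

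PRC2 is best known for acting at promoters rich in CG dinucleotides, so the promoters of the receptors are shown with each CG in capitals. RefSeq windows of the 250 bases before the transcription start (GRCm38.p6) were matched for 6 of the 9 genes, *Cd44*, *Cxcr4*, *Itga4*, *Itga5*, *Itga9* and *Itgb1*. *Itga6*, *Itgb2* and *Selplg* had no match. The windows held 5 CG in *Cd44*, 6 in *Itga4*, 10 in *Itga9*, 11 in *Itga5*, 19 in *Cxcr4* and 21 in *Itgb1*, against a median of 6 over 32851 windows. The *Itga9* window lies inside the gene as GENCODE draws it and may serve a shorter transcript. The 3 windows below are those with the most CG (*Itgb1*, chr8:128685404-128685653, plus strand) and the fewest (*Cd44*, chr2:102901666-102901915, minus strand), and that of *Cxcr4* (chr1:128592300-128592549, minus strand), whose RNA was scarce.
Itgb1: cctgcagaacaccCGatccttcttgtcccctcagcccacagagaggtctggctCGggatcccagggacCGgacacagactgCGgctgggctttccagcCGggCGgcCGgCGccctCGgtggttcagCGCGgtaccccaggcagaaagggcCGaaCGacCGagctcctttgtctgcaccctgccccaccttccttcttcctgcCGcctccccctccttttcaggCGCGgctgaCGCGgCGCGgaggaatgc
Cxcr4: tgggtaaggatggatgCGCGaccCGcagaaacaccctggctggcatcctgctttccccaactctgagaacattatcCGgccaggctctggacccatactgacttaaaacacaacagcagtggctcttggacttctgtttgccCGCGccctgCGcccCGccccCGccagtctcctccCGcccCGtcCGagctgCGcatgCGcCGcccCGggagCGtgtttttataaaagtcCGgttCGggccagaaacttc
Cd44: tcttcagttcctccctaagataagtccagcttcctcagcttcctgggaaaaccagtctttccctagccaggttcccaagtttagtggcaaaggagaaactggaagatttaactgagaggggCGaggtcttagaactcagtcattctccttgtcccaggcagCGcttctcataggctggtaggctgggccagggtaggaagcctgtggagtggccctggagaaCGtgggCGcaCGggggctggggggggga
At least as many CG were found in 16.3% of all windows for *Itgb1*, in 19.7% for *Cxcr4* and in 55.6% for *Cd44*. *Itgb1* and *Cxcr4*, whose windows are alike in CG count, lay far apart in the RNA levels described next.

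The libraries held 5763118 (WT) and 4157280 (labelled Ezh2 KO) gene counts, so 3 counts corresponded to 0.521 and 0.722 CPM (counts scaled to a common gene total). *Ezh2* itself did not fall, with 166 counts in WT against 129 in the other library, or 142.5 and 150.3 normalised counts (log2 ratio 0.08, 95% interval -0.27 to 0.42). Gene-level counts do not show the loss of single exons, so that library is named by its label. The libraries also came from mice of different sex by their RNA, with *Xist* at 801 and 4 counts and the Y-linked *Ddx3y* at 0 and 275, and sex cannot be told apart from genotype. HSC identity genes were present in both, 11 of 11 with a summed level of 4552 and 4844 CPM. Neutrophil markers were higher in the Ezh2 KO-labelled library for 11 of 11 genes found, with summed levels of 1420 and 3286 CPM. Eosinophil markers summed to 2.08 and 782 CPM, with 6 of 9 at 0 in WT and 0 of 9 in the other library. In bulk RNA, fewer cells of a type and less RNA per cell cannot be told apart. Immediate-early genes, listed for activation after isolation, summed to 13784 CPM in WT and 7431 CPM in the Ezh2 KO-labelled library. Of 12 with a mean of at least 1 CPM, 10 were at least 1.5-fold lower, against 20.5% of such genes in either direction. The counting interval lay below 0 for 11 of the 12, against 40.0% on either side of 0. The part of such activation in the ratios below was not tested.

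Expression was compared between genes only after division by exon length, as RPKM (CPM per kilobase of exon). *Itgb1* (chromosome 8, 128685654 to 128733200 in mm10), the common beta subunit, was the most expressed receptor, with 95.3 RPKM in WT and 99.8 in the Ezh2 KO-labelled library. *Selplg* (chromosome 5, 113818536 to 113832644) followed with 42.3 and 52.3 RPKM. In WT, *Itgb2* (39.7 RPKM) held the third place and did not differ from *Selplg* beyond counting error (log2 gap 0.09, 95% interval -0.05 to 0.23). In the Ezh2 KO-labelled library, *Itgb2* held the fourth place with 26.8 RPKM, where it did not differ from *Itga6* (27.6 RPKM) or *Itga5* (23.3 RPKM) beyond counting error. The laminin receptor subunit *Itga6* had 29.9 RPKM in WT, *Itga5*, the fibronectin receptor subunit, 24.0 RPKM, and *Cd44* 19.2 RPKM in WT and 19.3 in the other library.

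The 3 remaining receptors had the lowest RPKM. *Itga4*, the alpha subunit of the VCAM1 receptor VLA-4, had 4.75 and 4.66 RPKM in the WT library and the Ezh2 KO-labelled library. It was well counted, with 383 and 271 counts spread over 13978 bases of exon. *Cxcr4* had 2.69 and 2.53 RPKM, from only 28 and 19 counts. *Itga9* was lowest, with 0.316 and 0.626 RPKM from 14 and 20 counts. All other neighbours in the order of levels were further apart than counting error in both libraries. Exon length here is the union of all annotated exons, which for *Itga6* is 9025 bases against 4310 in its longest transcript. For *Itga4* the longest transcript has 9767 bases and gives 6.80 and 6.67 RPKM. With the longest transcript as the length, *Itga6* had 62.7 and 57.9 RPKM and *Itgb2* held the fourth place in both libraries (40.8 and 27.5 RPKM), so the change of place of *Itgb2* depended on the length used.

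**Figure D1:**
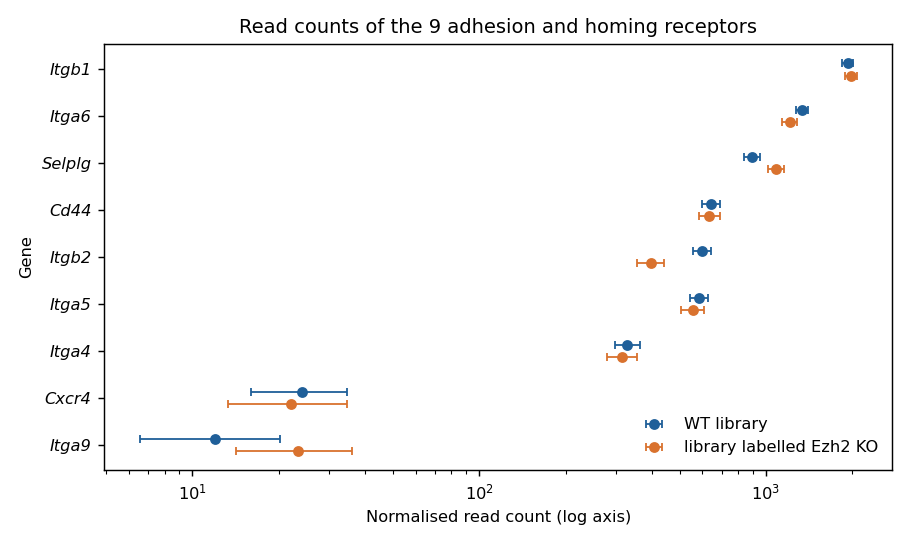
Normalised read counts (x, log axis, not scaled for gene length) of the 9 receptors (y) in the WT library (blue) and the Ezh2 KO-labelled library (orange), 1 library each, with exact 95% Poisson intervals of the count. The points of a gene lie close together for most receptors, while *Itgb2* is lower (599.0 and 396.2) and *Selplg* higher (894.2 and 1081) in the Ezh2 KO-labelled library, and the intervals of *Cxcr4* and *Itga9* are wide.

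The main comparison asked whether RNA for these receptors differed between the Ezh2 KO-labelled library and WT. No receptor reached a 2-fold difference, and most were nearly level. *Itgb2* was the exception among the well-counted receptors, at 66.1% of its WT level. *Selplg* was slightly higher at 1.21-fold. Counts were divided by size factors, and log2 ratios of normalised count plus 1 are given for the Ezh2 KO-labelled library over WT.

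Of the 9 receptors, 0 differed by at least 2-fold, against 8.81% of the 12588 genes tested (mean of at least 1 CPM). At least 1.5-fold was reached by 2 of 9, *Itgb2* (lower) and *Itga9* (higher), against 20.5% of genes tested. Most of that background came from weakly counted genes. Among the 7 receptors whose mean reached 100 normalised counts, 1 passed 1.5-fold, against 7.24% of the 8083 genes with such means, and 0 passed 2-fold, against 1.05%. The counting interval excluded 0 for 3 of 9 receptors (*Itgb2* and *Itga6* lower, *Selplg* higher), against 40.0% of genes tested. The median log2 ratio of the 9 receptors was -0.06, with 6 below 0 and 3 above, beside -0.0032 for all genes tested. That lean was not stable, since with the deeper library thinned to the depth of the other the median was 0.02, with 3 below 0 and 6 above.

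*Itgb2* (chromosome 10, 77530252 to 77565708) encodes CD18, the beta subunit of the leukocyte integrins. It had 698 counts in WT against 340 in the Ezh2 KO-labelled library, which normalise to 599.0 and 396.2. Its log2 ratio of -0.60 (95% interval -0.79 to -0.41) ran from -0.62 to -0.54 over all alternatives tried. Tested genes were split by mean count into 10 groups of similar count, and the group of *Itgb2*, with means of 489.7 to 840.2 normalised counts, had log2 ratios from -0.43 at the 5th to 0.36 at the 95th percentile, so *Itgb2* lay below the 5th percentile. It was the only receptor outside these percentiles of its own group. Under total-count scaling (-0.57) and with the dependence of ratios on length and GC content taken out (-0.54) it lay just short of 1.5-fold. Its interval reached above 0 once a spread between libraries (coefficient of variation, CV) of 0.2 was assumed.

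*Selplg* encodes PSGL-1, the main selectin ligand of leukocytes and progenitors. It had 1042 counts in WT against 928 in the Ezh2 KO-labelled library, or 894.2 and 1081 normalised counts. Its log2 ratio of 0.27 (0.15 to 0.40) was above 0 by counting error but lay just under the 95th percentile (0.29) of genes of similar count. Neutrophils also express *Selplg* and *Itgb2*, and their markers were higher in the same library (1420 and 3286 CPM summed, 11 of 11 genes). The part of neutrophil or eosinophil RNA in either ratio was not tested.

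*Itgb1* had 2242 counts in WT against 1693 in the Ezh2 KO-labelled library, or 1924 and 1973 normalised counts (log2 ratio 0.04, -0.06 to 0.13). The hyaluronan receptor *Cd44* (chromosome 2, 102811141 to 102901665) had 750 and 545 counts, or 643.6 and 635.1 normalised counts (log2 ratio -0.02, -0.18 to 0.14). By counting error alone the fold lay between 0.962 and 1.09 for *Itgb1* and between 0.882 and 1.10 for *Cd44*.

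The alpha partners of *Itgb1* that were well counted were also close. *Itga5* (chromosome 15, 103344286 to 103366763) had 681 counts in WT against 477 in the Ezh2 KO-labelled library, or 584.4 and 555.9 normalised counts (log2 ratio -0.07, -0.24 to 0.10). *Itga4* (chromosome 2, 79255426 to 79333123) had 383 and 271 counts, or 328.7 and 315.8 normalised (log2 ratio -0.06, -0.29 to 0.17). Exons of *Itga4* overlap those of *Cerkl* on the opposite strand over 8.04% of their length, and reads there may have been left out or shared because the use of strand in counting is not stated. *Itga6* (chromosome 2, 71745616 to 71858416) had 1557 and 1037 counts, or 1336 and 1208 normalised. Its log2 ratio of -0.14 (-0.26 to -0.03) was below 0 by counting error, and its interval included 0 once the deeper library was thinned (-0.12, -0.24 to 0.0056). It lay well inside the 5th to 95th percentile of genes of similar count (-0.40 to 0.29).

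*Cxcr4* (chromosome 1, 128588199 to 128592293) was too weakly counted for a close comparison. Its 28 counts in WT against 19 in the Ezh2 KO-labelled library gave 24.0 and 22.1 normalised counts and a log2 ratio of -0.11 with a wide interval of -1.04 to 0.77. A difference of 1.5-fold in either direction was not detectable at this depth. *Itga9* (chromosome 9, 118606690 to 118901003) had 14 and 20 counts, or 12.0 and 23.3 normalised. Its log2 ratio of 0.90 was the largest of the 9, but the interval (-0.10 to 2.05) included 0 and the ratio lay inside the percentiles of its group (-1.59 to 1.66). With the deeper library thinned to the depth of the other it was 0.68, and with a pseudocount of 5 it was 0.73.

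**Figure D2:**
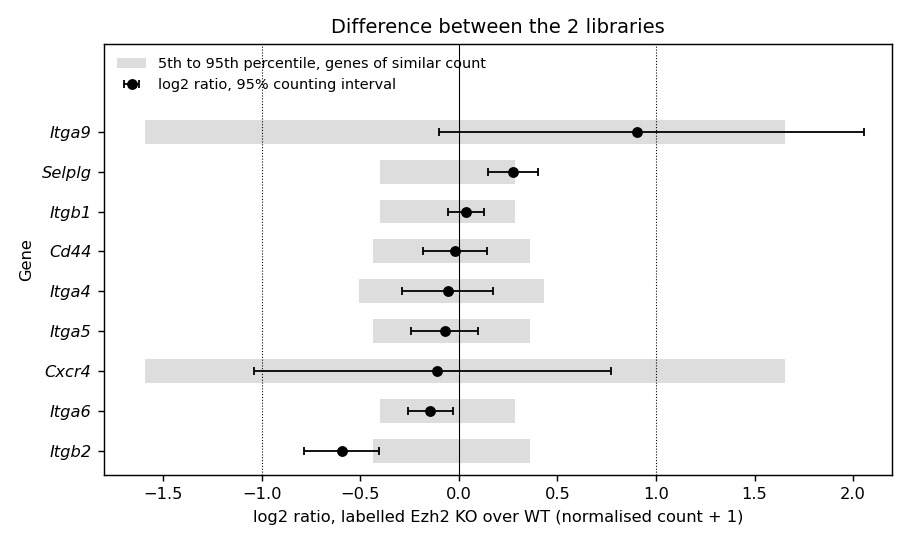
The log2 ratio of normalised count plus 1, labelled Ezh2 KO over WT (x), for each receptor (y), with exact 95% counting intervals; grey bars span the 5th to 95th percentile of log2 ratios in the group of tested genes with similar counts, and dotted lines mark 2-fold. *Itgb2* (-0.60) lies left of its grey bar, *Selplg* (0.27) just inside the right end of its bar, and the others within theirs.

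Ratios between receptors of 1 library do not depend on how the libraries were scaled. The share of *Itgb2* in the counts of the 2 beta subunits was 23.7% in WT (exact 95% interval 22.2% to 25.3%) and 16.7% in the Ezh2 KO-labelled library (15.1% to 18.4%). The ratio of *Itgb1* to *Itgb2* per exon length was 2.40 in WT and 3.72 in the other library, and the log2 of the change was 0.63 (95% interval 0.42 to 0.84). The ratio of *Selplg* to *Itgb2* per length was 1.07 and 1.95, a log2 change of 0.87 (0.64 to 1.10). The ratio of *Itga6* to *Itgb1* per length was 0.314 and 0.277, a log2 change of -0.18 (-0.33 to -0.04). For *Itga4*, *Itga5* and *Itga9* over *Itgb1* the interval included 0. Among these receptors the balance in this 1 pair of libraries lay away from the beta2 subunit, judged by counting error alone.

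The make-up of the alpha subunits was alike in the libraries. Per exon length, *Itga6* made up 50.8% of the 4 alpha subunits in WT and 49.2% in the Ezh2 KO-labelled library. *Itga5* made up 40.6% and 41.4%, *Itga4* 8.06% and 8.30%, and *Itga9* 0.536% and 1.11%. In raw counts, where intervals can be given, the share of *Itga6* was 59.1% (57.2% to 61.0%) and 57.5% (55.1% to 59.7%), and the intervals of each of the 4 subunits overlapped between the libraries. With the longest transcript as the length, *Itga6* made up 64.9% and 63.4%. The laminin receptor subunit was thus the leading alpha subunit under each length, and *Itga4* a minor one.

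The partners of *Itgb2* moved the other way from *Itgb2*. They were singled out after their values were seen, and apart from *Itgam* they fall outside the rule for named genes. *Itgam*, the alpha subunit of Mac-1, had 73 counts in WT against 131 in the Ezh2 KO-labelled library, or 62.6 and 152.7 normalised counts (log2 ratio 1.27, 0.86 to 1.72). *Itgal*, the alpha subunit of LFA-1, had 24 and 53 counts, or 20.6 and 61.8 normalised (log2 ratio 1.54, 0.86 to 2.34). *Itgax* and *Itgad* had 0 counts in WT and 7 and 6 in the other library, which is at least 3.17-fold higher for *Itgax* and at least 2.72-fold higher for *Itgad* when each library has a floor of 3 counts, though both were under the level for testing. All 4 partners were thus higher in the Ezh2 KO-labelled library while *Itgb2* was lower, and per exon length the leading partners stayed well under *Itgb2*, with 2.52 and 6.27 RPKM for *Itgam* and 0.634 and 1.94 RPKM for *Itgal*. *Itgam* is itself a neutrophil marker, and the neutrophil list was higher in that library. The part of other cells in these partner counts was not tested.

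**Figure D3:**
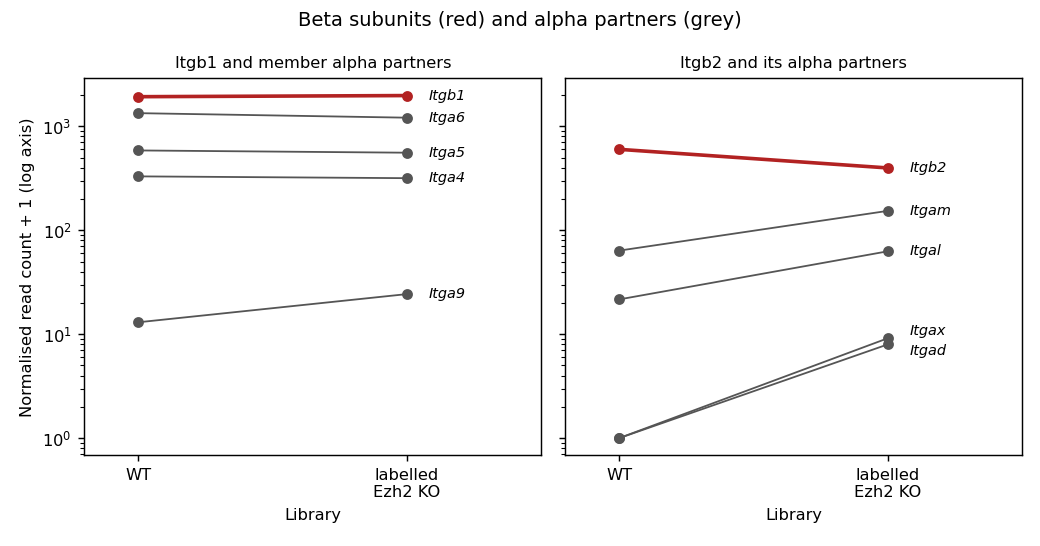
Normalised read count plus 1 (y, log axis) in the WT library and the Ezh2 KO-labelled library (x) for *Itgb1* with its 4 alpha partners among the receptors (left) and for *Itgb2* with its 4 alpha partners (right), 1 library per point. Lines on the left are nearly flat apart from *Itga9*, whereas on the right *Itgb2* goes from 599.0 to 396.2 while *Itgam* goes from 62.6 to 152.7 and *Itgal* from 20.6 to 61.8.

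The other integrin subunits were then counted. Of 20 listed, 10 were tested, and 2 were at least 2-fold higher (*Itgal* and *Itgam*) and 2 at least 2-fold lower (*Itgb3* and *Itgb6*), against 4.91% higher and 3.90% lower among all genes tested. *Itgb3*, the beta subunit of the platelet fibrinogen receptor, had 345.8 normalised counts in WT against 167.8 in the Ezh2 KO-labelled library (log2 ratio -1.04, -1.33 to -0.77). Its alpha partner *Itga2b*, named after its value was seen, had 750.9 and 467.3 normalised counts (log2 ratio -0.68, -0.86 to -0.51). *Itgb6* had 17 counts in WT against 0 in the other library, at least 4.17-fold lower. It belongs to the group of genes with the lowest counts, where 40.8% passed 2-fold in either direction. *Itgb7*, which pairs with ITGA4 in the gut-homing integrin, was level at 478.8 and 456.8 normalised counts (log2 ratio -0.07, -0.26 to 0.12) and was also named after its value was seen.

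The list of integrin activators and adaptors had a median log2 ratio of 0.03. Of 17 activators and adaptors tested, 0 were at least 2-fold higher (against 4.91% of all genes tested) and 1 was lower (against 3.90%), *Tln2*, with 14 counts in WT and 0 in the other. The counting interval excluded 0 for 8 of 17, against 40.0% of genes tested. *Rap1a*, a small GTPase that activates integrins, had 454.8 and 609.5 normalised counts (log2 ratio 0.42, 0.25 to 0.60), above the 95th percentile of genes of similar count (0.36). The leukocyte forms, talin-1 and kindlin-3, were abundant in both libraries and, like *Rap1a*, were named after their values were seen. *Tln1* had 4513 and 3868 normalised counts (log2 ratio -0.22, -0.29 to -0.16) and *Fermt3* had 3770 and 3854 (log2 ratio 0.03, -0.03 to 0.10).

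Among genes of CXCR4 signalling, 18 were tested and the median was -0.06. At least 2-fold was reached by 1 higher gene (against 4.91% of all genes tested) and 0 lower (against 3.90%). The counting interval excluded 0 for 13 of 18, 4 above and 9 below, against 40.0% of genes tested. Such intervals narrow as counts rise, and they excluded 0 for 3581 of the 8083 genes with means of at least 100 normalised counts. No share matched to the counts of this list was computed. The gene past 2-fold was *Dpp4*, which encodes CD26, a surface protease that trims and inactivates CXCL12. It had 151 counts in WT against 234 in the Ezh2 KO-labelled library, or 129.6 and 272.7 normalised (log2 ratio 1.07, 0.77 to 1.38). The other CXCL12 receptor, *Ackr3*, was at 0 in both libraries. *Gnai2*, the main G protein alpha subunit coupled to CXCR4, had 5099 and 5593 normalised counts (log2 ratio 0.13, 0.08 to 0.19). *Arrb1*, an arrestin that shuts off such receptors, had 345.8 and 534.9 normalised counts (log2 ratio 0.63, 0.43 to 0.83), and *Rgs2*, which curbs G protein signalling, had 399.0 and 258.7 (log2 ratio -0.62, -0.86 to -0.39). Both passed 1.5-fold and lay outside the 5th to 95th percentile of genes of similar count, whose nearer bounds were 0.41 and -0.51. *Ackr3*, *Gnai2*, *Arrb1* and *Rgs2* were named after their values were seen.

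PSGL-1 binds selectins only after sugar addition and tyrosine sulfation. Of the 10 enzymes listed for these steps, 10 were tested and 0 passed 1.5-fold in either direction, with a median of 0.08. The share past 1.5-fold was 20.5% of all genes tested, but 7.24% of genes with means of at least 100 normalised counts. The counting interval excluded 0 for 7 of 10, 4 above and 3 below, against 40.0% of genes tested, a share not matched for count. *Gcnt1*, which starts the branched sugar chain, had 625.6 and 434.7 normalised counts (log2 ratio -0.52, -0.71 to -0.34), and *B4galt1* had 262.6 and 360.1 (log2 ratio 0.45, 0.22 to 0.69). *Fut7*, the fucosyltransferase of selectin ligands, was level at 182.8 and 183.0. *St3gal4* had 335.5 and 231.9 normalised counts (log2 ratio -0.53, -0.79 to -0.28). *Gcnt1*, *St3gal4* and *B4galt1* lay outside the 5th to 95th percentile of genes of similar count, whose nearer bounds were -0.43, -0.51 and 0.43. The enzymes named here were picked after their values were seen. Of the 6 proteins linking CD44 to the cell cortex, 1 was at least 2-fold higher (*Ank3*, 4 and 8 counts) and 1 lower (*Ank1*, 14 and 3 counts), against 4.91% and 3.90% of all genes tested. Both intervals included 0, and in the group of genes with the lowest counts, to which both belong, 40.8% passed 2-fold. The interval excluded 0 for 3 of the 6, 2 above and 1 below, against 40.0% of genes tested, a share not matched for count. The lower one was *Nf2*, named after its value was seen, with 483.1 and 310.0 normalised counts (log2 ratio -0.64, -0.86 to -0.43). It passed 1.5-fold and lay below the 5th percentile of genes of similar count (-0.50).

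Among other adhesion and retention receptors, 20 genes were tested, with 1 at least 2-fold higher (against 4.91% of all genes tested), 1 lower (against 3.90%) and a median of 0.07. At least 1.5-fold was reached by 4 higher and 2 lower genes, against 20.5% of genes tested in either direction. The counting interval excluded 0 for 12 of 20, 6 above and 6 below, against 40.0%, a share not matched for count. The one at least 2-fold lower was *Jam2*, a junctional adhesion molecule, which had 142.5 and 62.9 normalised counts (log2 ratio -1.17, -1.65 to -0.73). *Ptger4* had 720.8 and 418.3 (-0.78, -0.97 to -0.60), *Alcam* 174.2 and 279.7 (0.68, 0.41 to 0.96) and *Pecam1* 241.1 and 379.9 (0.65, 0.42 to 0.89). *Ptger4*, *Alcam* and *Pecam1* were named after their values were seen, and lay outside the 5th to 95th percentile of genes of similar count.

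Niche ligands were mostly weakly counted in these sorted cells. Of 16 listed, 9 were tested, 3 were at least 2-fold higher (against 4.91% of all genes tested) and 2 lower (against 3.90%), and the median was 0.0039. Of the 5, 4 belong to the 2 groups of genes with the lowest counts, where 40.8% and 25.7% of genes passed 2-fold in either direction. The higher ones were *Cxcl12* (5 and 17 counts), *Vcam1* (25 and 40) and *Spp1* (3 and 8), and the lower ones *Fn1* (55 and 0 counts, at least 13.5-fold lower) and *Lamc1* (131 and 36). These 5 fell outside the rule for named genes because of their low counts. The 3 higher ones lay inside the 5th to 95th percentile of genes of similar count, and the interval of *Spp1* included 0 (-0.20 to 4.41). *Fn1* and *Lamc1* (log2 ratio -1.40, -2.00 to -0.88) lay below the 5th percentile of theirs (-1.59 and -0.85). Over the list, the counting interval excluded 0 for 6 of 9, 3 above and 3 below, against 40.0% of genes tested, a share not matched for count. Of 8 stromal and endothelial markers, 4 were higher in the Ezh2 KO-labelled library, with summed levels of 365 and 203 CPM, or 74.4 and 104 CPM without *Vwf*, which HSCs also express. *Pdgfra* was at 0 in both, and their part in the ligand counts was not tested.

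Over the 7 lists together, 90 genes were tested, 8 were at least 2-fold higher (against 4.91% of all genes tested) and 7 lower (against 3.90%), and the median was 0.0054. Of those with means of 100 normalised counts or more, 3 of 71 genes were higher (*Itgam* and *Dpp4* among them) and 2 lower (*Itgb3* and *Jam2*), against 0.482% and 0.569%.

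**Figure D4:**
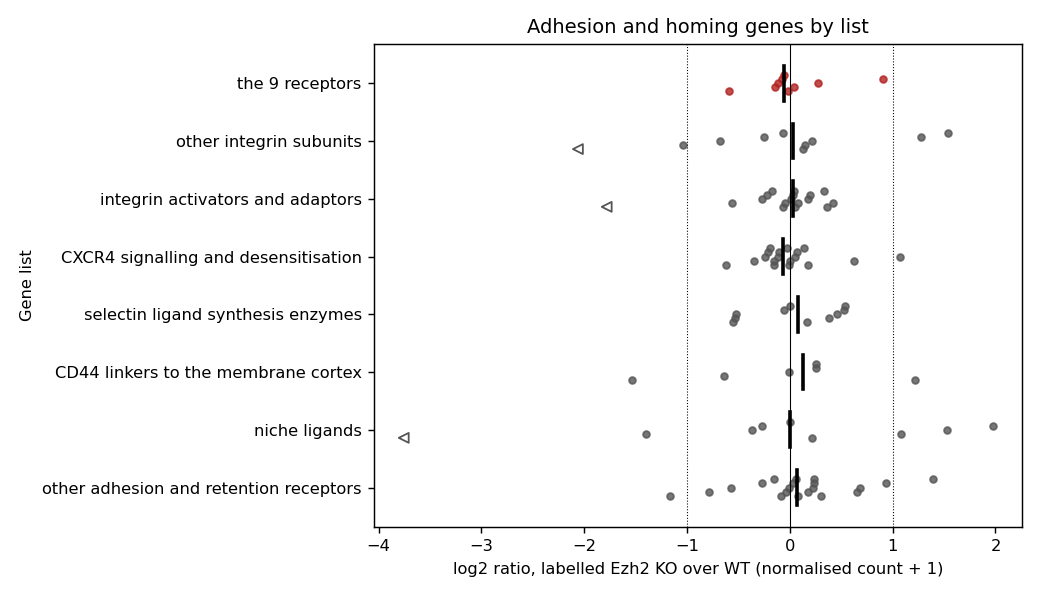
The log2 ratio of normalised count plus 1, labelled Ezh2 KO over WT (x), of each gene tested (points) in the 9 receptors (red) and in 7 lists of related genes (grey), with black bars at each list's median and dotted lines at 2-fold. Open triangles are genes at 0 in the Ezh2 KO-labelled library, placed at their lower bound of fold; all 9 receptors lie between the dotted lines, and the medians range from -0.06 to 0.12.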

How the data were processed

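RNA-seq libraries from 2 sorted HSC samples (1 labelled WT, 1 labelled Ezh2 KO) were used, grouped by their titles. The files deposited by the authors hold raw read counts for each gene symbol, with no normalisation by the authors. The submitters' processing notes name mm10, TopHat2 2.0.13, Bowtie2 2.1.0 and StringTie. The 5 closing entries for reads given to no gene (no feature, 44.9% of entries in WT and 44.1% in the other library; multiple alignments, 10.7% and 12.3%; ambiguous, 0.533% and 0.539%) carry names that htseq-count writes and were kept out of totals. Whether counting used strand is not stated.

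Counts were divided by DESeq2 1.42.0 median-of-ratios size factors (1.17 and 0.858). Genes with a mean of at least 1 CPM were taken as tested. Intervals on log2 ratios were exact 95% Clopper-Pearson intervals of the 2 counts, and those on ratios within a library were normal approximations on the log scale. With 1 library per group no model of edgeR 4.0.16 or DESeq2 was fitted and no p-value is given. Positions and exon lengths were taken from GENCODE M21 (GRCm38). Scripts ran in R 4.3.3 and Python 3.11.15 (matplotlib 3.10.9, scipy 1.17.1, statsmodels 0.14.6, pandas 2.3.3, numpy 2.4.6).

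The receptors and all lists were chosen with earlier results of these data known. Named genes were the 9 receptors, *Ezh2*, sex-linked genes as a check, and genes of the related lists past 2-fold whose mean reached 100 normalised counts. B lymphoid, T and NK, and erythroid markers summed to 48.4, 20.8 and 1774 CPM in WT and 101, 37.3 and 2274 CPM in the Ezh2 KO-labelled library, and immediate-early genes to 13784 and 7431 CPM. A gene that the rule selects is not reported here.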

Additional observations from a re-analysis of the deposited data

How the results depend on the processing

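No paired analysis was possible because there was 1 library per group, so no library could be left out either. The counts and the median were recomputed under 12 alternatives, and so was each receptor's ratio where the receptor passed the filter. Log2 ratios of all 9 receptors stayed inside their reported intervals. The ranges were -0.62 to -0.54 for *Itgb2*, 0.27 to 0.31 for *Selplg* and 0.68 to 0.94 for *Itga9*. The ratio of *Cxcr4* ran from -0.15 to 0.06, that of *Itga5* from -0.07 to 0.02 and that of *Cd44* from -0.02 to 0.01, so the direction of these 3 was not fixed. The 2 receptors past 1.5-fold became 1 under total-count scaling and 1 after removal of the trend with length and GC content, where *Itgb2* was lost (-0.57 and -0.54), and 1 with a mean of at least 10 CPM, where *Itga9* and *Cxcr4* were not tested. The 3 receptors whose interval excluded 0 became 2 with the deeper library thinned, where *Itga6* was lost, 0 with an assumed CV of 0.2 and 0 with a CV of 0.4. The median of the receptors, -0.06, was 0.02 after thinning and -0.06 to -0.02 otherwise. Genes past 2-fold, 1109 in the reported setting, numbered 2502 with no expression filter and 211 with a mean of at least 10 CPM. Genes past 1.5-fold numbered 2582, 4478 and 1011 in the same settings. Genes whose interval excluded 0 fell from 5037 to 721 with a CV of 0.2 and 162 with a CV of 0.4. Shares of *Itga6* and *Itga5* among the alpha subunits depended on the length used, and the longest transcript was chosen as an alternative after seeing the data. Depth limits *Cxcr4* and *Itga9* most, and how far any of these genes varies between mice is not known from 1 library per group.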
